A study of Mus musculus with 7 samples.

Results

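Solitary chemosensory cells, also called tuft cells in other epithelia, are rare epithelial cells that taste the air or the lumen and answer irritants, microbes and allergens. They were represented here by 8 genes, which were chosen by name from their known roles in these cells. Every array probe that is not a control and whose transcript maps to one of the 8 symbols was taken, which gave 11 probes of 39429 on the array. *Plcb2* had 2 probes, *Dclk1* had 3 and each of the other genes had 1. The study asked how inhaled diesel exhaust particles (DEPs) alter gene expression in the nose. RNA came from the nasal cavity of BALB/c mice, all female and labelled with an age of 6 weeks, taken here as the age when exposure began. The study's text places the tissue at the nasal septum and turbinates. The exposed groups breathed 100 ug/m3 DEP from a nebulizer for 1 h a day on 5 days a week, for 4 weeks (4 arrays) or 8 weeks (3 arrays). The control is labelled only as control, and the study's methods state that it received saline in the same way. No group carries a genetic change. Each array held DEP RNA in the Cy5 channel and control RNA in the Cy3 channel, without any dye swap, so a dye effect of a probe and an effect of DEP cannot be told apart. All 4-week arrays share 1 slide and all 8-week arrays share another. Exposure time therefore cannot be told apart from slide, or from the age of the mice when tissue was taken. How many of the 32 mice gave RNA to an array, and whether the control RNA was pooled, is not given in the sources used here, so the p-values measure only the spread between these arrays.

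In these cells bitter, sweet or umami receptors act through a G protein that contains gustducin (*Gnat3*), then through phospholipase C beta 2 (*Plcb2*) and the calcium-gated cation channel *Trpm5*. *Pou2f3* is the transcription factor that the lineage needs, and advillin (*Avil*) is a marker of the cell's actin bundles. The kinase *Dclk1* marks tuft cells of the gut and is also found in neurons. *Alox5ap*, which presents arachidonic acid to 5-lipoxygenase, and *Ltc4s*, leukotriene C4 synthase, serve the synthesis of cysteinyl leukotrienes, a main output of tuft cells, and both are also expressed by leukocytes.

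The 3 probes of *Dclk1* name transcripts of the same gene and gave different ratios, as described below, and RefSeq's table of start sites (GRCm38.p6) lists 2 start windows for it. Their 250 bases upstream of the start, on the plus strand of chromosome 3, are shown because the transcripts that the probes read may begin at either, and the files do not say at which.
Dclk1, chr3:55242114-55242363: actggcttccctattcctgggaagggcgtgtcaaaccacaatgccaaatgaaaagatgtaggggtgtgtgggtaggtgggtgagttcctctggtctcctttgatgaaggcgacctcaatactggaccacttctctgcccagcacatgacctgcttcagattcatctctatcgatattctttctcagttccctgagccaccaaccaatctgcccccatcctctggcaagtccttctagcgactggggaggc
Dclk1, chr3:55461478-55461727: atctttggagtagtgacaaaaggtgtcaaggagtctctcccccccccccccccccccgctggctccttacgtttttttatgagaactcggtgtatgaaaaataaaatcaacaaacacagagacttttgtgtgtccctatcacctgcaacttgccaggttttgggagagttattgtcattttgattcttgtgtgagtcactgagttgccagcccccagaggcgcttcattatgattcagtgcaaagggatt
The first window held 52.4% G and C and the other 46.8%, against a median of 52.4% over all 32851 windows in the table. No part is in capitals, because none of 3 motifs searched on both strands was found: the octamer ATGCAAAT (in 1.6% of all windows), the TATA box TATAAA (12.4%) and the GC box GGGCGG (32.7%). The 7 windows that the table holds for 6 of the 8 genes had none of the 3 either.

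Of the 8 genes, 5 could not be measured reliably in this tissue: *Trpm5*, *Pou2f3*, *Gnat3*, *Plcb2* and *Avil*. A probe was tested when the scanner software called its spot well above background, with DEP or in control, on 3 or more of the 7 arrays, and 6 of the 11 probes (54.5%) did not reach this, against 36.1% of all probes on the array. Counted by gene, 5 of 8 (62.5%) were not tested, against 35.5% of the 32095 named genes and transcripts. The 5 genes include the cascade below the taste receptors and the transcription factor of the lineage, so the arrays do not bear out the cell type behind the name, and the genes are described here one by one. Olfactory tissue was present, since all 10 marker genes of mature olfactory neurons, *Omp* among them, were tested.

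*Trpm5* was well above background on none of the 7 arrays in either channel. Its median signal minus local background was 17.5, 14.5, 20 and 16 with DEP at 4 weeks and 15, 15, 15.5 and 14 in the control channel of the same arrays. At 8 weeks it was 10.5, 12 and 4.5 with DEP and 18, 18.5 and 20.5 in control. These values lie 4.5 to 20.5 scanner units above the local background. On the same arrays the median of the 153 negative-control spots lay between -1 and 3.5. Another flag of the software, for a signal positive and significant against background, was set for *Trpm5* on 6 arrays with DEP and 3 in control. In the same order it was set on 6 and 6 for *Pou2f3*, 4 and 4 for *Avil* and 4 and 2 for *Gnat3*. For the *Plcb2* probes it was 1 and 2, and 2 and 0. The *Trpm5* signals exceeded between 76.5% and 100% of the negative-control spots of their array.

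Neither probe of *Plcb2* was well above background on any array, with signals minus background from -8 to 20.5 over both probes and both channels. *Gnat3* was well above background on 1 array, in the DEP channel of replicate 1 of 4 weeks, at 28. The control channel of that spot was higher, at 73, without reaching the call, so no fold is given. On the other 6 arrays *Gnat3* lay between -3.5 and 12.5 with DEP and between 5 and 21.5 in control.

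*Pou2f3* was well above background on 2 of the 8-week arrays, in the DEP channel of replicate 1 (37.5) and in the control channel of replicate 2 (67). Its log2 ratios of DEP over control on these arrays were 0.35 and -0.53, which point opposite ways. At 4 weeks no *Pou2f3* spot was well above background, with signals from 8 to 15 with DEP and from 13 to 50.5 in control.

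*Avil* stood out on 1 array. On replicate 2 of 4 weeks its DEP signal was 99 and its control signal 34, a log2 ratio of 0.76, while replicates 1, 3 and 4 gave -0.03, -0.16 and -0.38. The 8-week arrays gave -0.24, -0.11 and -0.24, with no spot well above background in either channel. The control channel of replicate 4 of 4 weeks was also called well above background, at 33, against a DEP signal of 6.5. A single array therefore carried the only high DEP value of *Avil*, and the gene entered no test.

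**Figure D1:**
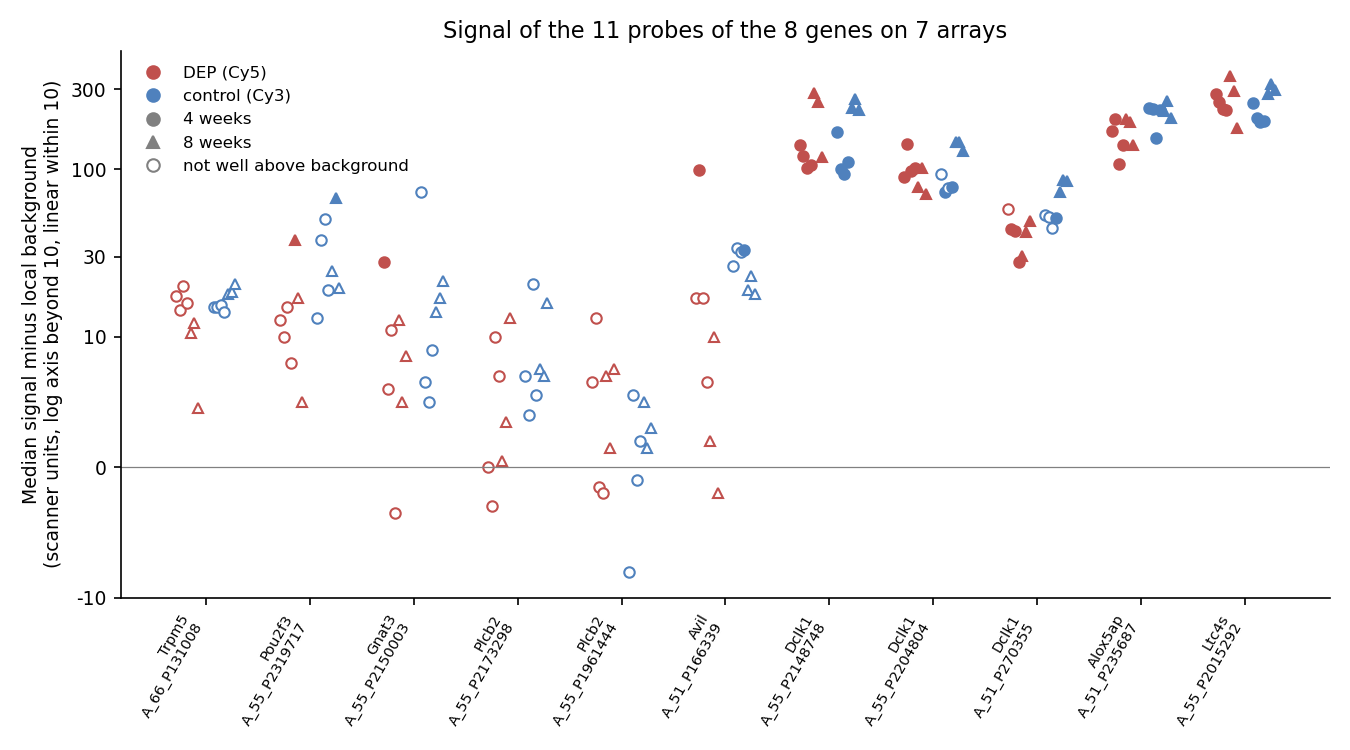
Median signal minus local background (y axis, scanner units, linear within 10 and on a log scale beyond) of each of the 11 probes (x axis) in the DEP (Cy5, red) and control (Cy3, blue) channel of 4 arrays at 4 weeks (circles) and 3 at 8 weeks (triangles); open symbols were not well above background. The probes of *Trpm5*, *Pou2f3*, *Gnat3*, *Plcb2* and *Avil* are almost all open, while those of *Alox5ap* and *Ltc4s* are filled on all 7 arrays in both channels.

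The remaining 3 genes, *Ltc4s*, *Alox5ap* and *Dclk1*, were tested by limma across all 7 arrays with 1 mean log2 ratio for each exposure time. The p-values were Benjamini-Hochberg adjusted over 25197 tested probes, a gene was valued by its brightest tested probe, and a gene counted as called when the adjusted p did not exceed 0.05. At 4 weeks 1 of the 3 genes was called, higher with DEP, where 38.2% of all 20693 tested genes were called, 21.7% higher and 16.5% lower. At 8 weeks none was called, where 37.2% of all genes were called, 20.3% higher and 16.9% lower. None differed between the times, where 30.9% of all genes were called, 14.8% higher at 8 than at 4 weeks and 16.1% lower. Without adjustment, at a p under 0.05, none of the 3 passed at 8 weeks (47% of all genes) and 1 passed for the difference between times (42.6%). At 4 weeks 2 passed (48.1%). The test that the study's methods name called 2 of the 3 at 4 weeks (22.6% of all genes), none at 8 weeks (1.9%) and none between the times (25.5%). With the ratios used here, none of the 3 reached the study's own thresholds of p of at most 0.01 and a change of at least 2-fold. Of all genes 1.3% reached them at 4 weeks, 2.94% at 8 weeks and 3.06% for the difference. The study normalized its signals with other software, so these shares are not like for like with its selection. The steps used here also shrink ratios. On simulated arrays, probes raised 2-fold had a median log2 ratio of 0.72.

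These shares of all genes depend on the scaling. Among all called genes, 56.8% were higher at 4 weeks, against 42.6% with median centring in place of loess and 67.5% with the signals as the scanner software processed them. At 8 weeks 54.6% were higher, against 27% with median centring. For the difference 47.9% were higher, against 28.8% with median centring and 35.5% with the processed signals. Median centring moved the median of all genes at 8 weeks from 0.01 to -0.105.

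*Ltc4s*, the enzyme that joins glutathione to leukotriene A4, was the only one of the 3 called at 4 weeks when each gene is read by its brightest probe. Its log2 ratios were 0.49, 0.25, 0.34 and 0.44 at 4 weeks. All 4 arrays were above 0. The mean of 0.38 (SE 0.11, a 1.3-fold change) had an adjusted p of 0.031 by limma, with a 95% interval from 0.12 to 0.64. At 8 weeks the arrays gave 0.69, 0.28 and -0.09. These spread more widely than the 4-week arrays, with an SD of 0.39 against 0.11, and 1 of the 3 was below 0. Their mean of 0.29 was not called (adjusted p = 0.12 by limma, 95% interval -0.01 to 0.59), and the difference between the times, -0.09, was within its error (adjusted p = 0.72 by limma, 95% interval -0.48 to 0.31). The 4-week call was lost without any single one of the 4-week arrays, with adjusted p between 0.053 (without replicate 2) and 0.093 (without replicate 1), and without replicate 2 of 8 weeks (0.054). It was kept when fitted on the 4-week arrays alone (adjusted p = 0.0081 by limma) and without replicate 1 or 3 of 8 weeks (0.0091 and 0.011). At 8 weeks the mean was 0.48 without replicate 3 (adjusted p = 0.022 by limma), but 0.09 without replicate 1 (adjusted p = 0.56) and 0.04 with median centring (adjusted p = 0.82).

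The normalised level of *Ltc4s* after scaling the arrays to each other was 8.67 ± 0.35 (log2, SD, n = 3) with DEP at 8 weeks, 8.37 ± 0.04 (n = 3) in the control channel of those arrays, 8.29 ± 0.20 (n = 4) with DEP at 4 weeks and 7.91 ± 0.10 (n = 4) in control at 4 weeks. Both control groups were separated by more than their spread, with the 8-week controls between 8.33 and 8.41 and the 4-week controls between 7.82 and 8.06. The first 3 levels in this order overlapped with their neighbour, and the 4-week control lay below all arrays of the others.

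*Alox5ap*, the partner of 5-lipoxygenase upstream of *Ltc4s*, was well above background in both channels on every array. Its log2 ratios were -0.0065, -0.16, -0.22 and -0.26 at 4 weeks and 0.21, 0.03 and 0.08 at 8 weeks. All 4 arrays at 4 weeks were below 0 and all 3 at 8 weeks were above 0, so the times did not overlap. Neither mean was called (-0.16 at 4 weeks with an adjusted p of 0.061, 0.11 at 8 weeks with 0.23). The difference of 0.27 between the times (SE 0.087, 95% interval 0.07 to 0.47) had an adjusted p of 0.051 by limma. Without replicate 1 of 4 weeks, whose ratio was nearest 0, the 4-week mean was -0.21 (adjusted p = 0.024 by limma) and the difference 0.32 (adjusted p = 0.02 by limma). The 4-week mean was also called with median centring, at -0.23 (adjusted p = 0.024 by limma), a setting in which the 8-week mean was -0.10, close to the median of all genes there, and the difference 0.13 (adjusted p = 0.34). With processed signals the 4-week mean was -0.06 (adjusted p = 0.54 by limma), and over the single 4-week arrays left out it was -0.13 to -0.21.

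Levels of *Alox5ap* were 8.15 ± 0.11 (log2, SD, n = 3) with DEP at 8 weeks, 8.04 ± 0.08 (n = 3) in control at 8 weeks, 7.92 ± 0.22 (n = 4) in control at 4 weeks and 7.76 ± 0.26 (n = 4) with DEP at 4 weeks. Each neighbouring pair in this order overlapped in its range over arrays.

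*Dclk1* was the gene with the most probes, and its 3 probes disagreed. The brightest, A_55_P2148748, was well above background on every array with DEP and in control, with log2 ratios of 0.16, 0.17, 0.19 and 0.19 at 4 weeks and 0.61, 0.32 and -0.20 at 8 weeks. The 4-week values lay close together (SD 0.016), while the 8-week values spanned 0 as those of *Ltc4s* did, with replicate 1 highest and replicate 3 lowest for both genes. Neither mean was called, at 0.18 (SE 0.11, adjusted p = 0.24 by limma) and 0.24 (SE 0.13, adjusted p = 0.18 by limma). The limma fit gives a probe 1 SD for both times, so the wide 8-week spread enters the error at 4 weeks. Fitted on the 4-week arrays alone, the same mean of 0.18 had an adjusted p of 0.026 by limma. The 8-week mean was 0.46 without replicate 3 (adjusted p = 0.0081 by limma), but 0.06 without replicate 1 (adjusted p = 0.76) and 0.02 with median centring (adjusted p = 0.92).

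The next probe, A_55_P2204804, names the same transcript in the array's annotation and was well above background with DEP on 7 arrays and in control on 5. The missing control calls were those of replicates 1 and 3 of 4 weeks, at signals minus background of 94 and 77. These exceeded 94.1% and 92.8% of the negative-control spots of their arrays. The control side of those ratios thus lies within the range of these spots. Its log2 ratios were 0.29, 0.59, 0.32 and 0.43 at 4 weeks and -0.31, -0.04 and -0.11 at 8 weeks. All 4 values at 4 weeks were above 0 and all 3 at 8 weeks below it. The 4-week mean of 0.41 (SE 0.068, a 1.33-fold change) had an adjusted p of 0.003 by limma. The 8-week mean of -0.15 was not called (adjusted p = 0.17), although it was with median centring (-0.28, adjusted p = 0.039) and with processed signals (-0.28, adjusted p = 0.049), and the difference of -0.56 (SE 0.10, 95% interval -0.80 to -0.32) had an adjusted p of 0.0062 by limma. Each of the calls, of the 4-week mean and of the difference, was made in all 15 alternatives that give its value. The 4-week mean ran from 0.28 to 0.80 and the difference from -1.08 to -0.43. The filter on both channels left this probe out, so it is not among them. The 0.80 and the -1.08 came from the processed signals, and the 0.28 and the -0.43 from the background correction fitted on all spots.

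The dimmest, A_51_P270355, names another transcript of *Dclk1* and was well above background with DEP on 6 arrays and in control on 4. Its log2 ratios were 0.33, -0.09, 0.08 and -0.20 at 4 weeks and -0.37, -0.29 and -0.04 at 8 weeks. No mean was called, at 0.03 at 4 weeks (adjusted p = 0.83) and -0.23 at 8 weeks (adjusted p = 0.13), and the difference of -0.26 had an adjusted p of 0.20 by limma. With median centring the 8-week mean was called (-0.28, adjusted p = 0.035 by limma), and with processed signals it was -0.72 and the difference -1.06, neither called. The 3 probes thus put the change from 4 to 8 weeks at 0.07, -0.56 and -0.26, and the mean of the 3 was called in the opposite direction to the brightest, at -0.25 (adjusted p = 0.022 by limma).

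By level, A_55_P2148748 stood at 8.36 ± 0.42 (log2, SD, n = 3) with DEP and 8.11 ± 0.03 (n = 3) in control at 8 weeks, above 7.51 ± 0.19 (n = 4) with DEP and 7.34 ± 0.20 (n = 4) in control at 4 weeks. The levels of the 8-week arrays did not overlap with those of the 4-week arrays in either channel, while DEP and control overlapped within each time. For A_55_P2204804 the lowest of the 4 levels was the 4-week control, at 7.01 ± 0.05 (n = 4). The others were 7.42 ± 0.13 (n = 4) with DEP at 4 weeks, 7.39 ± 0.11 (n = 3) with DEP at 8 weeks and 7.55 ± 0.04 (n = 3) in the 8-week control. The 4-week control did not overlap with any of them.

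**Figure D2:**
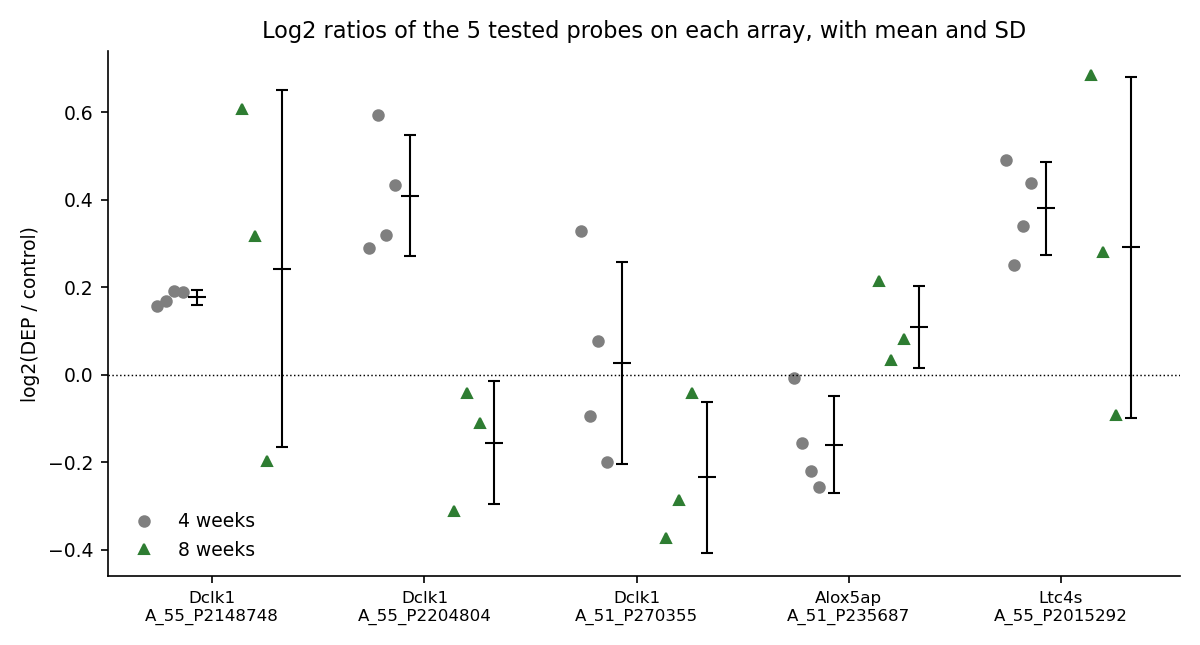
Log2 ratio of DEP over control (y axis) on each of 4 arrays at 4 weeks (grey circles) and 3 arrays at 8 weeks (green triangles) for the 5 tested probes (x axis), with the mean and SD of each time in black. *Dclk1* probe A_55_P2204804 lies above 0 at 4 weeks and below 0 at 8 weeks, *Alox5ap* the other way round, and *Ltc4s* has a mean of 0.38 at 4 weeks.

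**Figure D3:**
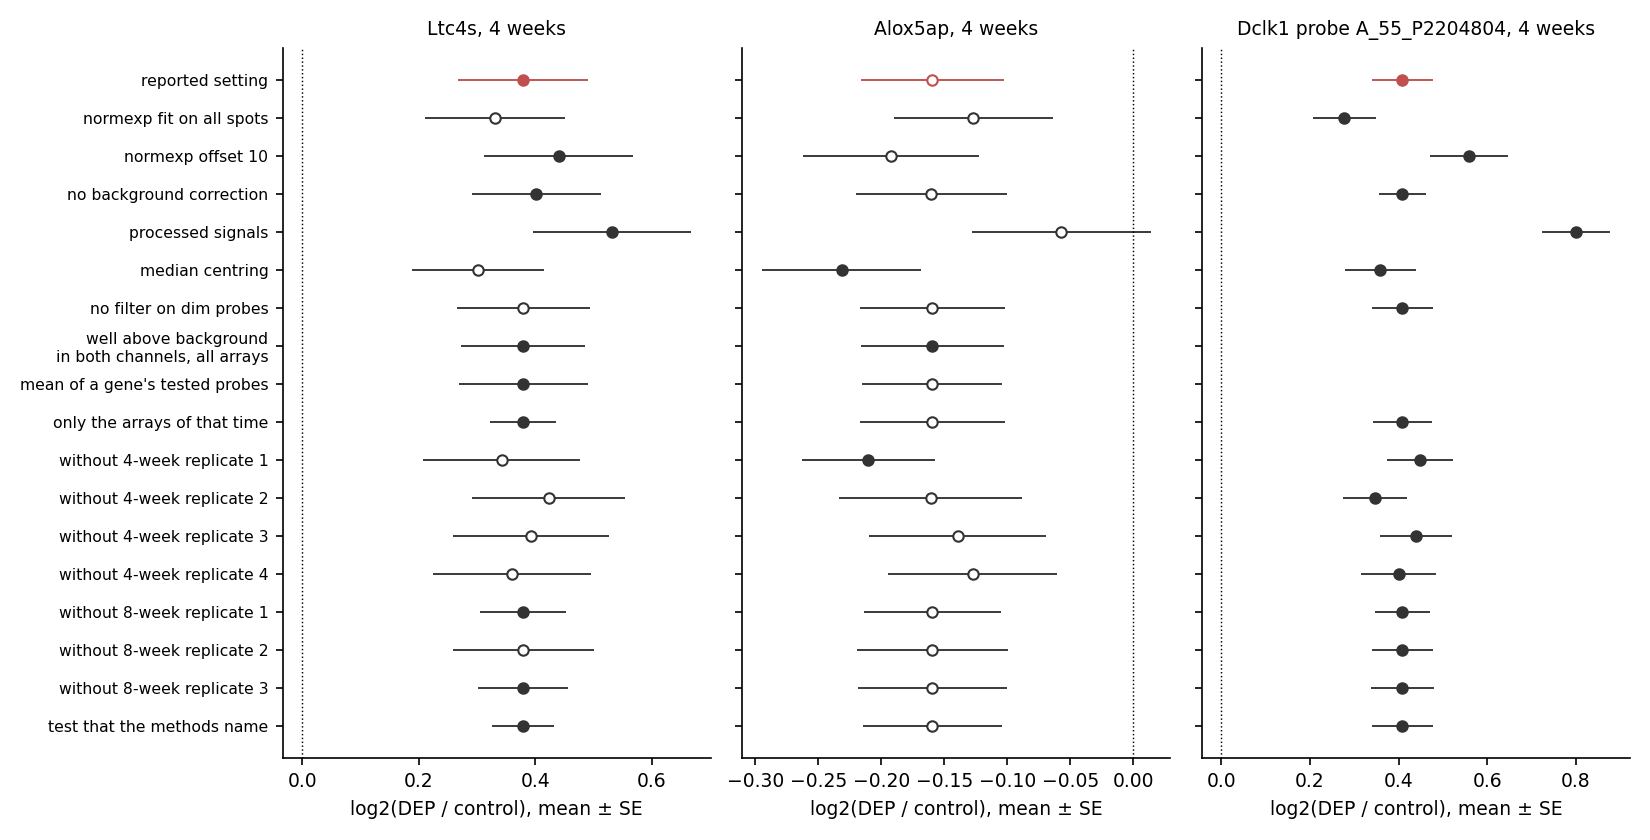
Mean log2 ratio of DEP over control at 4 weeks with its SE (x axis) for *Ltc4s*, *Alox5ap* and *Dclk1* probe A_55_P2204804 under the reported setting (red) and each alternative (black); filled symbols have an adjusted p of at most 0.05, and a blank means that the alternative gives no value for that probe. The *Ltc4s* call is lost in 8 of the 17 alternatives, while the *Dclk1* probe is filled in all 15.

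The genes whose ratios ran most like those of the tested genes over the 7 arrays were found by Pearson correlation, as a description. For *Ltc4s* these were *Krt80* (r = 0.992) and *Loxhd1* (r = 0.991), for *Dclk1* by its brightest probe *Cfhr2* (r = 0.981) and *Tmsb10* (r = 0.979), and for *Alox5ap* *Wdr63* (r = 0.997) and *Chst14* (r = 0.991). The ratios of an array share its labelling and its slide, and the highest r among so many tested genes over 7 points is large by construction.

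The partners of these genes in taste transduction were split between genes that could and could not be measured. Of 21 genes of that list, 20 were on the array and 11 were tested. Among those not tested were the sweet receptor subunit *Tas1r2*, the bitter receptors *Tas2r105*, *Tas2r108*, *Tas2r119*, *Tas2r126*, *Tas2r135* and *Tas2r138*, the succinate receptor *Sucnr1* and the ATP channel *Calhm1*. At 4 weeks 3 of the 11 rose and none fell (27.3% and 0%, against 21.7% and 16.5% of all tested genes). At 8 weeks 4 rose and 2 fell (36.4% and 18.2%, against 20.3% and 16.9%). The counts of the lists and cell markers below are to be read against the same shares of all genes, and no list was tested as a set. The median log2 ratio of the 11 was 0.11 and 0.17, against 0.0012 and 0.01 over all tested genes. With median centring 2 rose and none fell at 4 weeks, and 3 rose and 3 fell at 8 weeks.

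The gene that moved most among them was *Gng13*, the gamma subunit that pairs with gustducin in taste cells and also serves olfactory neurons. Its log2 ratios were 0.34, 0.45, 0.62 and 0.68 at 4 weeks and -0.79, -0.89 and -1.13 at 8 weeks, with every array above 0 at 4 weeks and every array below 0 at 8 weeks. It was called at both times (0.52, adjusted p = 0.0016, and -0.94, adjusted p = 0.00017, by limma), and so was the difference of -1.46. *Gnb1*, a beta subunit present in most cells, fell at 8 weeks by 0.76 on the log2 scale (adjusted p = 0.005 by limma). *Tas1r3*, a subunit shared by the sweet and umami receptors, rose by 0.32 at 4 weeks and 0.53 at 8 weeks, and the short-chain fatty acid receptor *Ffar3* by 0.28 and 0.50. The 4-week call of *Tas1r3* was lost in 6 of 12 alternatives, at an adjusted p of up to 0.16, and that of *Ffar3* in none. The olfactory neuron markers moved as *Gng13* did, with 7 of 10 higher and none lower at 4 weeks (median 0.42) and none higher and 8 lower at 8 weeks (median -0.44). With median centring 4 were higher at 4 weeks and 9 lower at 8 weeks. A summed level adds up the normalised levels of a list's tested genes on an array, on the linear scale, so bright genes weigh most. Here it was 134180 to 152018 with DEP and 72765 to 86228 in control at 4 weeks. At 8 weeks it was 91363 to 92557 against 116728 to 137183. The part of olfactory neurons in the ratio of *Gng13*, and in that of the *Dclk1* probe A_55_P2204804, which points the same way at each time, was not tested. In whole tissue fewer cells of a type and less RNA per cell cannot be told apart. One marker of this list, *Cngb1*, was among the genes that the study selected on these arrays.

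Of 20 genes of tuft cell identity and structure, 19 were on the array and 16 were tested. At 4 weeks 3 rose and 2 fell, and at 8 weeks 2 rose and 3 fell. The median ratio was -0.02 at 4 weeks and -0.08 at 8 weeks. With median centring 3 rose and 4 fell at 4 weeks, and 1 rose and 6 fell at 8 weeks, in a setting where 21% of all genes fell at 4 weeks and 33.2% at 8 weeks.

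*Cd300lf*, a receptor of tuft cells and of myeloid cells that binds lipids, had the highest ratios of the list at 8 weeks. Its arrays gave 0.53, 0.23, 0.14 and 0.26 at 4 weeks and 1.44, 1.56 and 1.64 at 8 weeks, without overlap. The mean was 0.29 at 4 weeks (adjusted p = 0.015) and 1.55 at 8 weeks (adjusted p = 8.4e-06 by limma), and the difference of 1.26 was called as well. The transcription factor *Ascl2*, also expressed in neuronal and epithelial progenitors, rose at 4 weeks (0.49, adjusted p = 0.0013 by limma) and belongs to the genes that the study selected on these arrays, as *Espn* of this list does. The kinase *Bmx*, also a gene of endothelium, rose at 4 weeks (0.42, adjusted p = 0.0041 by limma).

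*Krt8*, a keratin of simple epithelium, fell by 0.51 at 4 weeks and 0.59 at 8 weeks on the log2 scale (both adjusted p = 0.017 by limma), and its partner *Krt18* fell by 0.29 at 8 weeks (adjusted p = 0.013 by limma), with a mean of 0.06 at 4 weeks. *Vil1*, which bundles actin in microvilli, fell by 0.24 at 8 weeks (adjusted p = 0.018 by limma). The 8-week calls of these 3 genes were lost without replicate 2 of 8 weeks (adjusted p = 0.11, 0.055 and 0.093) and without replicate 3 (0.056, 0.061 and 0.071). The partners of *Pou2f3* could not be read, since *Pou2af2* was not tested and *Pou2af3*, although tested, had SEs above 0.30 at both times.

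Of 13 genes for the products of tuft cells, all were on the array and 9 were tested. *Il25* and *Tslp*, the cytokines that act on group 2 innate lymphoid cells, were not tested, and neither were the choline transporter *Slc5a7* and the prostaglandin D2 synthase *Hpgds*. At 4 weeks 2 rose and 2 fell, and at 8 weeks 1 rose and 1 fell, with medians of -0.15 and 0.04. With median centring 1 rose and 4 fell at 4 weeks, and none rose and 3 fell at 8 weeks.

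*Mgst2*, a microsomal glutathione transferase that can also make leukotriene C4, was lower at both times, opposite to the ratio of *Ltc4s*. Its arrays gave -0.77, -0.53, -0.58 and -0.52 at 4 weeks and -0.60, -0.45 and -0.22 at 8 weeks. It fell by 0.60 (adjusted p = 0.00068 by limma) and 0.42 (adjusted p = 0.0065 by limma). *Alox5*, the lipoxygenase that *Alox5ap* serves, was not called at either time, at -0.06 (adjusted p = 0.36) and 0.04 (adjusted p = 0.59 by limma). *Lta4h*, which turns leukotriene A4 to leukotriene B4 instead, rose at 8 weeks (0.27, adjusted p = 0.046 by limma), a call that was lost in 6 of 12 alternatives. The vesicular acetylcholine transporter *Slc18a3* rose at 4 weeks (0.23, adjusted p = 0.016 by limma), while choline acetyltransferase, *Chat*, was not called (-0.20 at 4 weeks and 0.21 at 8 weeks). The exporter of leukotriene C4, *Abcc1*, rose at 4 weeks (0.19, adjusted p = 0.031 by limma) and the phospholipase *Pla2g5* fell by 0.22 (adjusted p = 0.037 by limma). The calls of *Abcc1*, *Pla2g5* and *Slc18a3* were lost in 5, 4 and 2 of 12 alternatives, and *Slc18a3* stood at 0.98 with processed signals.

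The receptors and breakdown enzymes of the leukotrienes and of IL-25 were measured in 9 of 12 genes. The receptors *Cysltr2*, *Oxgr1* and *Il17rb* were not tested. At 4 weeks none of the 9 rose and 3 fell, and at 8 weeks 2 rose and none fell, with medians of -0.21 and 0.01. *Ltb4r1*, the high-affinity receptor of leukotriene B4, gave -0.38, -0.46, -0.45 and -0.42 at 4 weeks and 0.44, 0.26 and 0.35 at 8 weeks. It fell by 0.43 (adjusted p = 0.00042 by limma) and then stood 0.35 above control (adjusted p = 0.002 by limma), and the difference of 0.78 was called. The dipeptidase *Dpep1*, which cleaves leukotriene D4, fell at 4 weeks by 0.39 (adjusted p = 0.00073 by limma) and its relative *Dpep2* rose at 8 weeks by 0.64 (adjusted p = 0.001 by limma). *Il13ra1* fell at 4 weeks by 0.30 (adjusted p = 0.0018 by limma). *Cysltr1* was not called at either time, at -0.21 (adjusted p = 0.088) and 0.01 (adjusted p = 0.94 by limma).

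**Figure D4:**
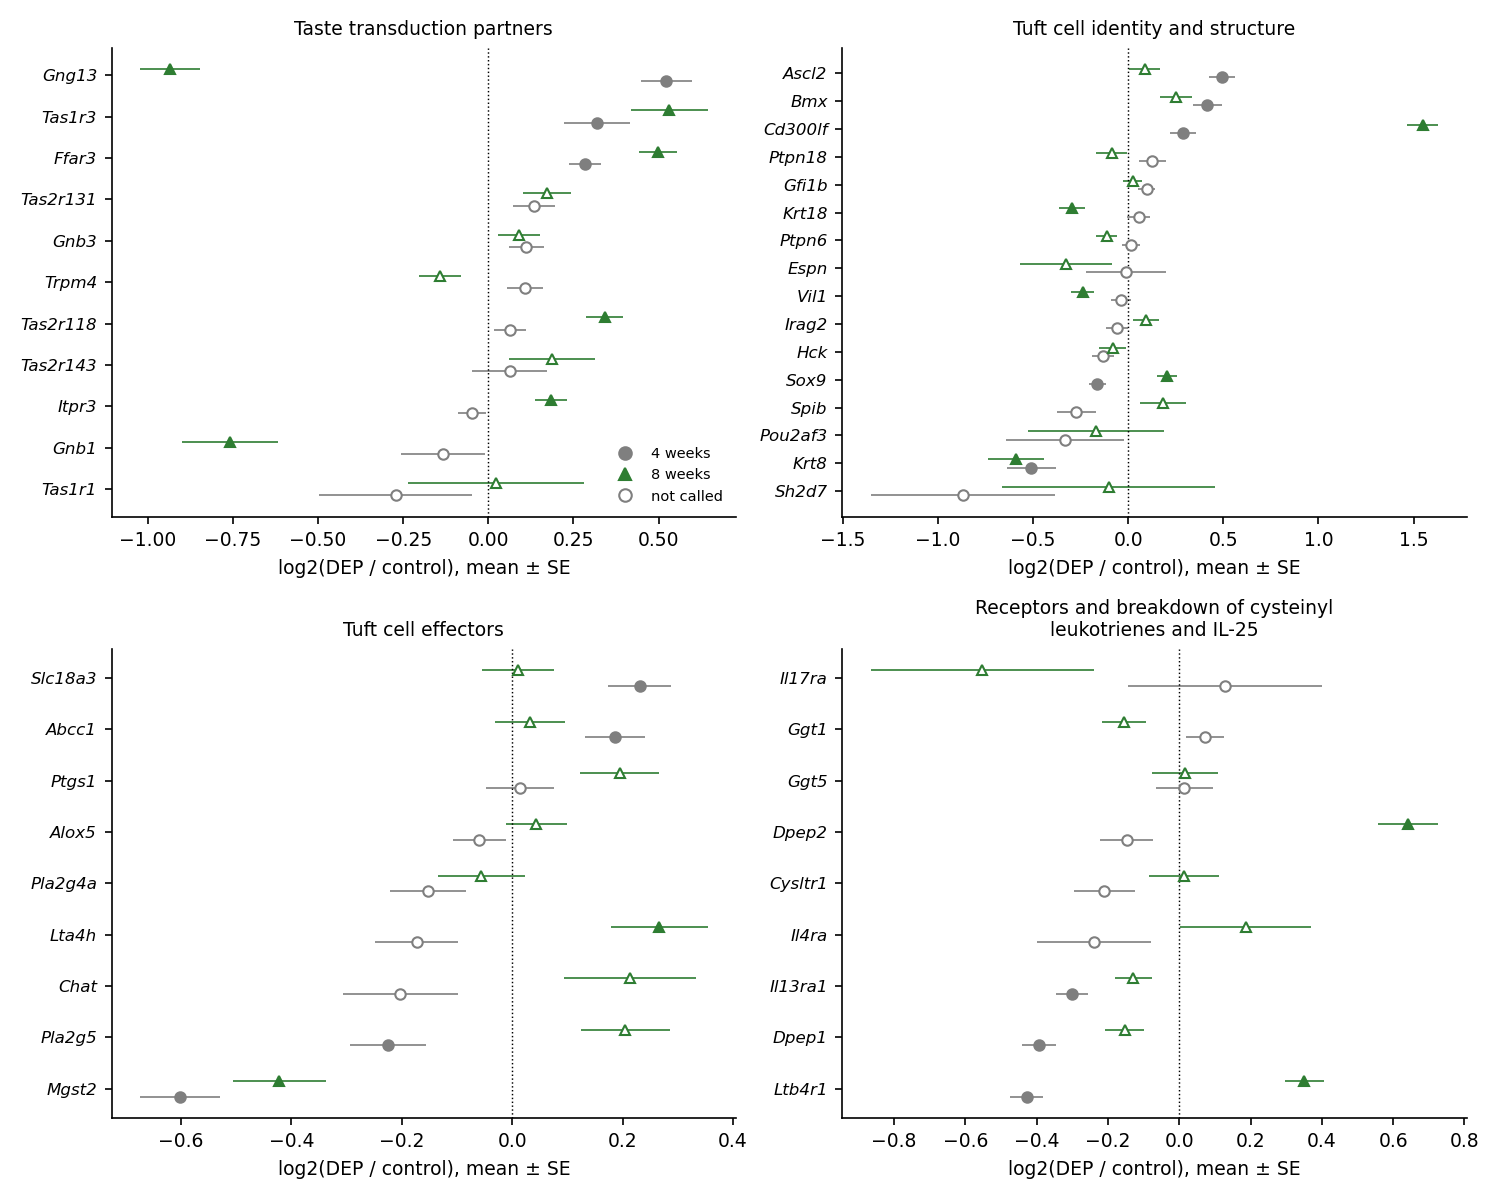
Mean log2 ratio of DEP over control with its SE (x axis) for each tested gene (y axis) of 4 lists at 4 weeks (grey circles) and 8 weeks (green triangles); filled symbols have an adjusted p of at most 0.05. *Gng13* and *Ltb4r1* change sides between the times, and *Cd300lf* stands furthest right at 8 weeks, at 1.55.

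Markers of other cell types, chosen as a tissue check or as cells that could hold transcripts of these genes, moved as follows. Neutrophil markers were lower in 5 and higher in 1 of 8 tested at 4 weeks, and lower in 5 and higher in 2 at 8 weeks, with medians of -0.69 and -0.82. Their summed level was 35536 to 43321 with DEP against 37345 to 38168 in control at 4 weeks, and 41997 to 46993 against 39296 to 41092 at 8 weeks. At 8 weeks the sum was thus above control while the median ratio was below 0. The single ratios ran from -1.80 to 1.07, so the markers did not move 1 way. The study selected *S100a9* and *Csf3r* of this list on these arrays. Macrophage markers were lower in 2 of 8 and higher in none at 4 weeks, and lower in 1 and higher in 1 at 8 weeks. Their summed level overlapped between DEP and control at both times, at 2830 to 3423 against 3185 to 3413 and at 3429 to 4372 against 3720 to 4308. Eosinophil markers were tested in 2 of 5, neither was called, and the defining *Epx*, *Ccr3* and *Siglecf* were not well above background on enough arrays. Their summed level was 161 to 168 with DEP against 146 to 199 in control at 4 weeks, and 159 to 174 against 151 to 168 at 8 weeks.

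Mast cell and basophil markers were tested in 5 of 10, with *Cma1*, *Ms4a2*, *Fcer1a* and *Mcpt8* not tested. At 4 weeks 1 was higher and 2 lower, among them *Cpa3* at -0.31 (adjusted p = 0.0028 by limma). The 5 mean ratios at 4 weeks ran from -0.58 to 0.20, so the markers went both ways. At 8 weeks 1 was higher and 1 lower. The median ratio of the 5 was 0.20, -0.16, -0.22 and -0.27 on replicates 1 to 4 of 4 weeks and 0.06, 0.01 and -0.02 on the 8-week replicates. The ratios of *Alox5ap* lay near these on some arrays and away from them on others, among them replicate 1 of each time. Their summed level was 1714 to 2025 with DEP and 1721 to 2281 in control at 4 weeks, and 2244 to 2361 against 2142 to 2165 at 8 weeks. Whether mast cells or other leukocytes carry the ratios of *Alox5ap* and *Ltc4s* was not tested.

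Taste bud markers of type I and III were higher in 3 of 5 tested genes and lower in none at 4 weeks, and higher in 4 and lower in 1 at 8 weeks, with a summed level of 8892 to 10814 with DEP against 5923 to 6613 in control and of 12061 to 15259 against 8723 to 9873. Sustentacular cell markers were higher in 4 of 5 at 4 weeks and lower in 4 and higher in 1 at 8 weeks (medians 0.32 and -0.43), with a summed level of 76612 to 103201 against 54961 to 65358 and of 83283 to 91913 against 119593 to 142711. The study selected *Ermn* among them. Ionocyte markers, the other rare epithelial cell, were higher in 3 of 5 at 4 weeks and in 2 at 8 weeks and lower in none, although 2 were lower at 8 weeks with median centring, and *Asgr1* of this list was selected by the study. Their summed level was 1572 to 1742 against 981 to 1165 and 1725 to 1795 against 1447 to 1527. Peripheral sensory neuron markers, a further source of *Avil* and *Dclk1*, were lower in 2 of 7 and higher in none at 4 weeks, and higher in 3 and lower in 1 at 8 weeks. Their summed level was 1317 to 1538 with DEP against 1772 to 1911 in control, and 781 to 867 against 728 to 784, and the study selected *Tac1* among them. The part of these cells in the ratios of the 8 genes was not tested.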

How the data were processed

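For each of the 7 arrays the authors deposited the output of Feature Extraction 10.10.1.1, the scanner software that the submitters' processing notes name. Per the file headers, the median signals and backgrounds are intensity values without background subtraction or normalization. The deposited processed signals are intensity values that were background-subtracted and dye-normalized, and the deposited log10 ratio of Cy5 over Cy3 is made from them. It was not used. The flags for well above background, positive and significant signal, non-uniform spots and background outliers are the software's. The normalization of the study's own analysis was not repeated.

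With limma 3.58.1 in R 4.3.3, the background was corrected by normexp with an offset of 50. Its parameters were fitted without spots marked as background outliers, which on replicate 2 of 4 weeks move the fitted background mean from -11.7 to -614.5 in the DEP channel, and the correction was applied to every spot. Loess (span 0.3) was applied to the log2 ratios of each array, with control spots at weight 0. Non-uniform spots were left out and spots of a probe averaged. Levels were scaled between arrays by Aquantile. Probes were named through accessions in RefSeq (GRCm38.p6), which named 28330 of 39429, and the array's design is an older build, so no coordinates were taken for probes. The 1-mean-per-time model was fitted to all 7 arrays and read with limma's moderated statistics, two-sided. The study's methods name a Student's t-test between the control and DEP groups. The alternative called the methods' test here is a t-test of the log2 ratios. It set those of each time against 0, and those of the times against each other. Between 18533 and 25091 probes per array were well above background with DEP and between 16937 and 26957 in control, and no spot was saturated. The precision is set by how many arrays there are. The steps were tested on simulated arrays.

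The 8 genes, the gene lists and the tests were chosen with earlier results of these data known. The genes named are the 8, every probe of each, the 2 genes most like each tested one, and of each of 4 lists up to 4 called genes per time by size of change. *Alox5*, *Chat*, *Cysltr1*, *Pou2af3*, *Cpa3*, *Omp*, the genes not tested and list genes that the study itself selected (*Espn*, *Cngb1*, *S100a9*, *Csf3r*, *Ermn*, *Asgr1*, *Tac1*) were named outside this rule after their values were seen. Alternatives were normexp fitted on all spots, an offset of 10, no background correction, processed signals, median centring, no filter on dim probes, a filter on both channels, the mean of a gene's probes, each time alone, a replicate block, each array left out, and the methods' test.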

Additional observations from a re-analysis of the deposited data

Results flagged for a closer look

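Among 30 results at 4 weeks, 4 had 1 array far from the other 3, where chance flags about 1 in 20. These were *Plcb2* probe A_55_P2173298, at 0.12 on replicate 4, *Krt18*, at -0.049 on replicate 2, *Ffar3*, at 0.16 on replicate 3, and *Il13ra1*, at -0.38 on replicate 2. All are log2 ratios of DEP over control.

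Of 24 results tested for a difference between 8 and 4 weeks, 11 differed at an adjusted p of at most 0.05 by limma. Most of the 24 were named because they were called at 1 of the times, so this count is not set against all genes. The change in log2 ratio was -0.56 for *Dclk1* probe A_55_P2204804, -1.46 for *Gng13*, -0.63 for *Gnb1*, -0.41 for *Ascl2* and -0.35 for *Krt18*. It was 1.26 for *Cd300lf*, 0.79 for *Dpep2*, 0.78 for *Ltb4r1*, 0.44 for *Lta4h*, 0.43 for *Pla2g5* and 0.24 for *Dpep1*. The calls for *Dpep1*, *Lta4h*, *Gnb1*, *Krt18*, *Ascl2* and *Pla2g5* were lost in 6, 5, 4, 4, 3 and 3 of 12 alternatives. In none of the 11 can the exposure time be told apart from the slide or from the age of the mice when tissue was taken.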

How the results depend on the processing

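The count of called genes among the 3 tested was 1 at 4 weeks, where 38.2% of all genes were called. The share of all genes called under each setting is in brackets. The count was 0 with normexp fitted on all spots (24.4%) and 0 of 8 with no filter on dim probes (22.6%). It was 2 with the filter on both channels (50.7%) and 2 with the mean of a gene's probes (37.9%). With each time alone it was 2 (34.3%), and by the methods' test 2 (22.6%). Leaving out single arrays gave 0 to 2 (27.4% to 38.3%). With median centring it was again 1 (36.6%), but *Alox5ap* (lower) in place of *Ltc4s*. At 8 weeks the count was 0 to 2 over the arrays left out, with 2 only without replicate 3 of 8 weeks (27.9%). Between the times it was 1 with the filter on both channels (44.4%) and 2 with the mean of probes (30.9%). Over the arrays left out it was 0 to 1, with 1 only without replicate 1 of 4 weeks (33.2%). The cause of these changes was not tested.

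The sign turned in 8 cases. The difference between times of *Dclk1* was -0.24 with processed signals, -0.10 with median centring, -0.25 with the mean of its probes and -0.12 to 0.29 over the arrays left out, the lowest without replicate 1 of 8 weeks. Its 8-week mean was -0.049 with the mean of probes. The 8-week mean of *Alox5ap* was -0.10 with median centring, the difference of *Ltc4s* was -0.29 to 0.10 over the arrays left out (highest without replicate 3 of 8 weeks), and the 4-week mean of *Dclk1* probe A_51_P270355 was -0.073 to 0.10 (lowest without replicate 1 of 4 weeks). *Ltc4s* at 4 weeks ranged from 0.30 to 0.53 over 17 alternatives, with adjusted p from 0.0081 to 0.093.

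With the replicate number as a block, 0 of the 3 genes differed between the times, at 0.07 (*Dclk1*), 0.24 (*Alox5ap*, adjusted p = 0.13) and -0.07 (*Ltc4s*). The block took the count over all genes from 6397 to 3231. Deviations of same-numbered arrays correlated at -0.0064, -0.0071 and 0.016, within the range of -0.050 to 0.066 for arrays with different numbers. No pairing by number was thus seen in the ratios, which does not show whether the arrays were paired. Over all genes, the 4-week count of 7900 was 5054 with normexp on all spots and 4668 by the methods' test, the 8-week count of 7703 was 393 by the methods' test and 4467 without replicate 2 of 8 weeks, and the difference count was 3871 without the same array. Signal over background limits what can be said of *Trpm5*, *Pou2f3*, *Gnat3*, *Plcb2* and *Avil*, which were tested only without the filter.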
